A study of Bos taurus with 24 samples.

Results

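The 10 circadian clock genes PER1, PER2, PER3, CRY1, CRY2, CLOCK, NR1D1, NR1D2, DBP and BHLHE40 were taken by gene name from a table of 11937 genes counted in cattle satellite cells, from which skeletal muscle regenerates. All 10 were listed, each as 1 protein coding gene, and all 10 entered the test, since the filter of the fit removed no gene for low counts. ARNTL, which encodes BMAL1, is described beside them and is not counted among the 10.

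The circadian clock of a mammalian cell is a feedback loop of transcription factors. CLOCK and its partner BMAL1, listed here as ARNTL, switch on the period genes PER1, PER2 and PER3, the cryptochrome genes CRY1 and CRY2, the nuclear receptor genes NR1D1 and NR1D2, the transcription factor gene DBP and BHLHE40. PER and CRY proteins then hold CLOCK and BMAL1 back, NR1D1 and NR1D2 (REV-ERB alpha and beta) repress ARNTL, BHLHE40 (DEC1) competes for the same promoter elements, and DBP drives output genes. A change of serum is a known way to reset this loop in cultured cells, and the loop runs in skeletal muscle and its stem cells.

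The 24 libraries formed 6 groups of 4. Coculture groups held wild type bovine satellite cells of the longissimus dorsi muscle grown with fibroblasts in plates with 0.4 µm pores, and monoculture groups held the same cells without fibroblasts. Each culture was sampled in proliferation and at 24 h and 72 h of differentiation. A code in the labels was 1 in monoculture at 24 h and 72 h and 2 in all other groups. What this code marks is not described here. It cannot be told apart from differentiation within monoculture, or from culture at 24 h and 72 h. The satellite cells of every group came from 3 lines mixed together, at passage 3, with fibroblasts at passage 10, and were plated at 8000 cells/cm2 in medium with 20% fetal bovine serum and changed after 5 days to medium with 10% horse serum. The labels do not give the age or number of the animals, the hour of day of harvest, or whether monoculture wells held an empty insert. With 3 times, of which the later ones were 24 h and 72 h, nothing was sampled within a day, so no rhythm or phase was estimated. Nothing in the labels says that replicates were separate cultures, so p-values rest on a spread between samples that may be only technical.

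Library totals ran from 11.5 to 35.0 M counts, with coculture proliferation replicate 2 the deepest. Library names place all monoculture libraries, all coculture proliferation libraries and coculture 24 h replicates 1 and 2 in lane 6, and coculture 24 h replicates 3 and 4 and all coculture 72 h libraries in lane 7. Other parts of these names change together with the lane, so lane here stands also for whatever those parts mark. Lane and culture therefore cannot be told apart within a lane at 72 h, and a lane term in the fit rests on the coculture 24 h libraries. Of these, replicate 2 in lane 6 held the most ribosomal RNA of all libraries, so values with a lane term depend in part on that library. Nuclear ribosomal RNA made up 4.07% of counts in coculture 24 h replicate 2, 2.24% in coculture 72 h replicate 1 and 2.14% and 1.76% in monoculture 72 h replicates 3 and 4, against at most 1.40% in the others; these 4 are the libraries rich in ribosomal RNA below. Of 16 satellite cell and myogenic markers 7 were listed, and PAX7, MYF5, MYOD1 and MYOG, which define satellite cells and their differentiation, were not among the genes listed and are not analysed here. No listed gene had a count below 6 in any library, so low counts may have kept a gene out. Whether this holds for these markers was not tested. The 7 listed markers summed to 265 to 287 CPM in coculture and 222 to 230 CPM in monoculture in proliferation, 284 to 313 and 369 to 385 CPM at 24 h, and 295 to 305 and 462 to 501 CPM at 72 h. The 11 listed of 15 fibroblast markers were abundant in every library (53240 to 138147 CPM in sum), 1 of 10 leukocyte markers and 2 of 9 endothelial markers were listed. The 12 cell cycle genes summed to 724 to 753 CPM in coculture and 603 to 620 CPM in monoculture in proliferation, to 581 to 678 and 522 to 641 CPM at 24 h, and to 293 to 330 CPM in coculture and 129 to 159 CPM in monoculture at 72 h. Their part in the results below was not tested.

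PER1 rose several-fold in both cultures by 24 h after the change of serum and stayed high at 72 h. In proliferation, coculture held CRY2, NR1D1, PER1 and BHLHE40 higher and CRY1, CLOCK and NR1D2 lower than monoculture. CLOCK and BHLHE40 then moved apart in opposite directions: at 72 h coculture had more CLOCK and less BHLHE40 than monoculture, the reverse of proliferation. Levels are given as CPM, counts brought to a common library total after TMM scaling. Differences are log2 fold changes with standard errors (SE) from edgeR's quasi-likelihood test, adjusted by the Benjamini-Hochberg method over all 11937 genes. "Called" below means that this adjusted p was less than 0.05. CPM is not corrected for gene length, so levels are compared between groups and not between genes.

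**Figure D1:**
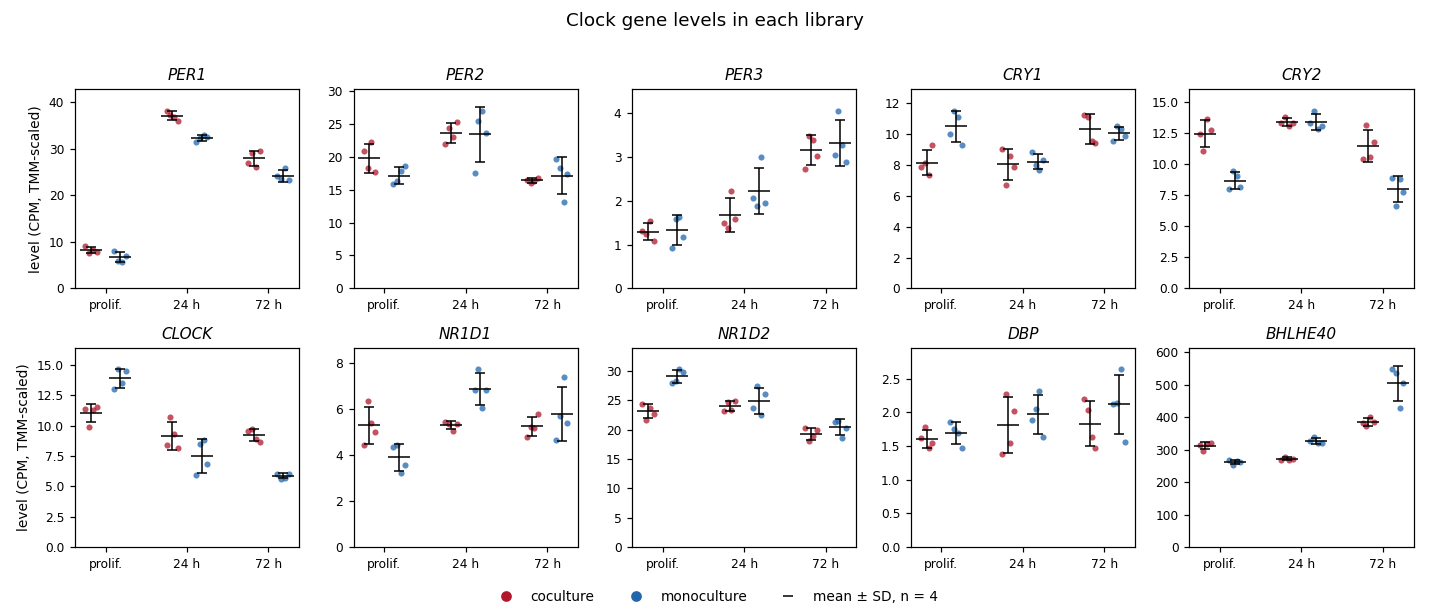
Level of each of the 10 clock genes in every library, in CPM after TMM scaling on a linear axis, by time, with coculture in red left of monoculture in blue; bars are the mean and SD of 4 libraries. PER1 averaged 8.22 CPM in coculture and 6.66 CPM in monoculture in proliferation and 37.1 and 32.3 CPM at 24 h, while CLOCK averaged 9.23 CPM in coculture and 5.87 CPM in monoculture at 72 h.

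CLOCK, the activator of the loop, lies on chromosome 6 at 70874084 to 70958310 (ENSBTAG00000044044; the sources used here do not give the build of the coordinates printed here). In proliferation its level was 11.3, 9.91, 11.3 and 11.6 CPM in coculture, against 13, 14.7, 13.5 and 14.5 CPM in monoculture. At 24 h it was 8.43, 10.7, 9.34 and 8.19 CPM in coculture, against 5.91, 8.49, 8.84 and 6.84 CPM in monoculture. At 72 h it was 9.60, 9.74, 8.91 and 8.68 CPM in coculture, against 6.04, 5.64, 5.73 and 6.06 CPM in monoculture. Every coculture library was below every monoculture library in proliferation, the groups overlapped at 24 h, and every coculture library was above every monoculture library at 72 h. In bulk RNA, fewer cells that hold a transcript and less of it per cell cannot be told apart.

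In coculture the log2 fold change of CLOCK was -0.25 ± 0.0997 (SE; edgeR adjusted p = 0.0408) from proliferation to 24 h and -0.24 ± 0.1 (adjusted p = 0.0373) from proliferation to 72 h. In monoculture the same changes were -0.87 ± 0.0994 (adjusted p = 5.22e-09) and -1.25 ± 0.105 (adjusted p = 5.23e-12). Both coculture calls lay near the threshold and were lost with a lane term, at log2 -0.18 and -0.10 (adjusted p = 0.271 and 0.681). Leaving out any one of coculture proliferation replicates 1, 3 or 4, or of coculture 24 h replicates 1, 3 or 4, also ended the first, at adjusted p = 0.0598 to 0.149 and log2 -0.26 to -0.20. Leaving out any one of coculture proliferation replicates 1, 3 or 4 or coculture 72 h replicates 3 or 4 ended the second, at adjusted p = 0.0672 to 0.103 and log2 -0.23 to -0.21. Between 24 h and 72 h CLOCK stood at 0.01 ± 0.102 in coculture (adjusted p = 0.95) and fell by 0.38 ± 0.114 in monoculture (adjusted p = 0.00638).

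The coculture difference of CLOCK was -0.36 ± 0.0947 in proliferation (adjusted p = 0.00192), 0.27 ± 0.105 at 24 h (adjusted p = 0.0634) and 0.65 ± 0.111 at 72 h (adjusted p = 1.41e-05). The change of that difference was 0.62 ± 0.141 from proliferation to 24 h (adjusted p = 0.000554; 0.71 within lane 6, adjusted p = 0.00126). From proliferation to 72 h it was 1.01 ± 0.146 (adjusted p = 8.45e-07), or 1.14 with a lane term (adjusted p = 4.32e-05). From 24 h to 72 h it was 0.38 ± 0.153 and not called (adjusted p = 0.0668). It was called with library sizes alone (0.52, adjusted p = 0.00985) and without monoculture 24 h replicate 1 or coculture 24 h replicate 2 (0.48 and 0.47, adjusted p = 0.0147 and 0.025). The 72 h difference with a lane term was 0.79 (adjusted p = 0.00146). Without monoculture 24 h replicate 2 or 3, or coculture 24 h replicate 4, the 24 h difference was called, at 0.32 to 0.35 (adjusted p = 0.0248 to 0.041).

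PER1, PER2 and PER3 encode the period proteins, which enter the nucleus with cryptochromes and repress CLOCK and BMAL1. PER1 (ENSBTAG00000003889) lies on chromosome 19 at 27778373 to 27788195. In proliferation it was at 9.18, 7.59, 8.16 and 7.93 CPM in coculture, against 8.01, 5.93, 5.70 and 7.01 CPM in monoculture. The 24 h level was 38.2, 37.3, 36.9 and 36 CPM in coculture, against 31.5, 32.2, 33.0 and 32.6 CPM in monoculture. The 72 h level was 27.0, 29.2, 26.2 and 29.5 CPM in coculture, against 24.1, 23.5, 25.9 and 23.2 CPM in monoculture. Each library at 24 h or 72 h lay above each library of proliferation, and coculture lay above monoculture without overlap at 24 h and 72 h but not in proliferation.

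Between proliferation and 24 h PER1 rose 4.56-fold in coculture (log2 2.19 ± 0.0714, adjusted p = 1.1e-20) and 4.88-fold in monoculture (log2 2.29 ± 0.0748, adjusted p = 5.06e-21). By size this was the 7th largest rise among the 11937 genes in coculture and the 9th in monoculture. It then fell from 24 h to 72 h, by 0.41 ± 0.0608 in coculture and by 0.42 ± 0.0631 in monoculture on the log2 scale (adjusted p = 1.66e-06 and 1.5e-06). The rise from proliferation to 24 h differed between the cultures by -0.10 ± 0.107 (95% interval -0.32 to 0.12, adjusted p = 0.461), and the later fall by 0.01 (interval -0.16 to 0.19). The coculture difference was small and of the same sign at each time, at 0.30 ± 0.0893 in proliferation, 0.20 ± 0.0599 at 24 h and 0.21 ± 0.0641 at 72 h (adjusted p = 0.00544, 0.016 and 0.00704). The 24 h call was lost among lane 6 libraries alone, where coculture kept 2 libraries (0.22, adjusted p = 0.063), and the 72 h call with a lane term (0.26, adjusted p = 0.0657). Scaled by library size alone, the 72 h difference was 0.34.

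PER2 (ENSBTAG00000001879; chromosome 3 at 117558077 to 117599996) moved much less. It averaged 19.8 ± 2.18 CPM in coculture and 17.1 ± 1.26 CPM in monoculture in proliferation (SD, n = 4), 23.6 ± 1.5 and 23.4 ± 4.15 CPM at 24 h, and 16.4 ± 0.322 and 17.1 ± 2.80 CPM at 72 h. It was highest at 24 h in both cultures, though every pair of groups adjacent in level overlapped. It fell from 24 h to 72 h, by 0.53 ± 0.103 in coculture and 0.45 ± 0.104 in monoculture (adjusted p = 7.79e-05 and 0.000467). The rise from proliferation to 24 h was 0.28 ± 0.101 in coculture (adjusted p = 0.0262) and 0.46 ± 0.102 in monoculture (adjusted p = 0.000232; 0.27 with library sizes alone, in place of TMM scaling). The coculture rise lost its call with library sizes alone (0.15, adjusted p = 0.244), with a lane term (0.25, adjusted p = 0.136), within lane 6 (0.26, adjusted p = 0.145), and without any one of coculture proliferation replicates 2 or 4 or coculture 24 h replicates 2 or 4 (0.23 to 0.26, adjusted p = 0.0573 to 0.104). At 72 h PER2 stood at -0.25 ± 0.105 from proliferation in coculture (adjusted p = 0.0386), a call lost with a lane term (-0.31, adjusted p = 0.169) and without any one of the coculture 72 h libraries or of coculture proliferation replicates 1 or 3 (-0.27 to -0.20, adjusted p = 0.0539 to 0.119). In monoculture that change was 0.00 ± 0.107 (adjusted p = 0.972), and -0.31 with library sizes alone (adjusted p = 0.0126). The difference between the cultures in that change was -0.26 (95% interval -0.56 to 0.05), called without monoculture 72 h replicate 3 (-0.36, adjusted p = 0.0232). No coculture difference of PER2 was called: 0.19 (95% interval -0.02 to 0.40), 0.01 (-0.19 to 0.21) and -0.07 (-0.29 to 0.15) in order of time.

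PER3 (ENSBTAG00000051176; chromosome 16 at 45546813 to 45602488) rested on 15 to 72 counts per library. Its level was 1.07 to 1.55 CPM in coculture and 0.931 to 1.64 CPM in monoculture in proliferation, 1.38 to 2.23 and 1.88 to 3.00 CPM at 24 h, and 2.73 to 3.48 and 2.88 to 4.06 CPM at 72 h. All libraries at 72 h were above all of proliferation in their own culture. Over the whole course it rose 2.47-fold in coculture and 2.46-fold in monoculture (log2 1.30 ± 0.193 and 1.30 ± 0.192, adjusted p = 8.62e-07 and 4.63e-07), and the difference between those rises was 0.00 (95% interval -0.51 to 0.52). In coculture the step to 24 h was 0.38 ± 0.214 (adjusted p = 0.148) and the step to 72 h 0.92 ± 0.185 (adjusted p = 0.000123). In monoculture both steps were called, at 0.72 ± 0.203 to 24 h and 0.58 ± 0.177 from there to 72 h (adjusted p = 0.00245 and 0.00642). The 24 h difference of -0.42 ± 0.195 between the cultures was not called (adjusted p = 0.122), except without coculture 24 h replicate 3 (-0.58, adjusted p = 0.0446).

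**Figure D2:**
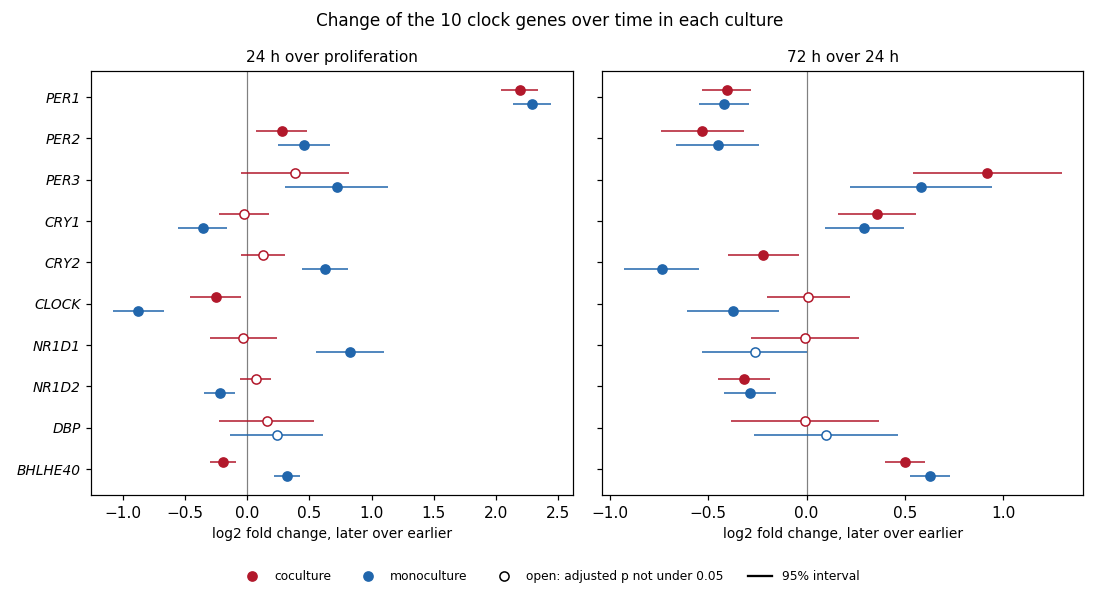
Log2 fold change of each clock gene from proliferation to 24 h (left) and from 24 h to 72 h (right), coculture in red above monoculture in blue, with 95% intervals; open points have an adjusted p of 0.05 or more. PER1 stood at 2.19 in coculture and 2.29 in monoculture on the left, where NR1D1 and CRY2 were at -0.03 and 0.12 in coculture against 0.83 and 0.63 in monoculture.

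CRY1 and CRY2 encode the cryptochromes, the partners of the period proteins in repression. CRY2 (ENSBTAG00000021223) lies on chromosome 15 at 75880142 to 75915194. In proliferation it was at 12.4, 11, 13.6 and 12.7 CPM in coculture, against 8.01, 9.42, 9.07 and 8.14 CPM in monoculture. At 24 h it was at 13.3, 13.8, 13.1 and 13.3 CPM in coculture, against 13.3, 14.3, 12.8 and 13.1 CPM in monoculture. At 72 h it was at 10.4, 13.2, 10.5 and 11.8 CPM in coculture, against 8.85, 6.66, 8.82 and 7.76 CPM in monoculture. Coculture was higher without overlap in proliferation and at 72 h, and the groups coincided at 24 h.

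The coculture difference of CRY2 was 0.50 ± 0.092 in proliferation (1.41-fold, adjusted p = 3.2e-05), -0.00 ± 0.0861 at 24 h (95% interval -0.18 to 0.17, adjusted p = 0.981) and 0.51 ± 0.0959 at 72 h (1.43-fold, adjusted p = 4.75e-05; 0.55 with a lane term, adjusted p = 0.00827). Both changes of that difference passed the test, -0.50 ± 0.126 from proliferation to 24 h and 0.52 ± 0.129 from 24 h to 72 h (adjusted p = 0.00148 and 0.00373). It was the 1 gene of the 10 whose coculture difference changed between 24 h and 72 h by edgeR's test, with CLOCK near the threshold (adjusted p = 0.0668). In coculture CRY2 was at 0.12 ± 0.087 to 24 h (adjusted p = 0.258) and -0.22 ± 0.088 from 24 h to 72 h (adjusted p = 0.0388). In monoculture CRY2 rose by 0.63 ± 0.091 to 24 h and then fell by 0.74 ± 0.0938 (adjusted p = 4.82e-07 and 7.78e-08). From proliferation to 72 h CRY2 was at -0.10 ± 0.0891 in coculture and -0.11 ± 0.0991 in monoculture (adjusted p = 0.362 and 0.313), both called with library sizes alone (-0.22 and -0.43, adjusted p = 0.0462 and 0.000361). The coculture call from 24 h to 72 h was lost with library sizes alone (-0.21, adjusted p = 0.0588), with a lane term or within lane 7 (both -0.20, adjusted p = 0.145 and 0.127) and without the libraries rich in ribosomal RNA (-0.16, adjusted p = 0.197). It was also lost without any one of the coculture 24 h libraries or of coculture 72 h replicates 1, 3 or 4 (-0.23 to -0.18, adjusted p = 0.051 to 0.126).

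CRY1 (ENSBTAG00000010149) lies on chromosome 5 at 70260349 to 70355222. In proliferation it was at 7.86, 8.11, 7.35 and 9.30 CPM in coculture, against 10.0, 11.5, 11.1 and 9.31 CPM in monoculture. At 24 h it averaged 8.06 ± 1.01 CPM in coculture and 8.21 ± 0.495 CPM in monoculture, and at 72 h 10.3 ± 0.968 and 10.1 ± 0.431 CPM (SD, n = 4). Proliferation was the time at which the cultures did not overlap, by the margin between 9.30 and 9.31 CPM, and there CRY1 was lower in coculture, by a log2 of -0.36 ± 0.0957 (adjusted p = 0.00192). At 24 h and 72 h the difference was -0.03 (95% interval -0.23 to 0.18) and 0.04 (-0.16 to 0.23). Coculture stood at -0.03 ± 0.0992 at 24 h relative to proliferation (adjusted p = 0.853) and rose by 0.36 ± 0.0969 from 24 h to 72 h (adjusted p = 0.00272; 0.24 without the libraries rich in ribosomal RNA, adjusted p = 0.07). Monoculture fell by 0.36 ± 0.0961 to 24 h (adjusted p = 0.00159; -0.55 with library sizes alone) and rose by 0.29 ± 0.0981 from there to 72 h (adjusted p = 0.0123; 0.16 with library sizes alone, adjusted p = 0.187). Over the whole course CRY1 rose in coculture, by 0.33 ± 0.0964 (adjusted p = 0.00378), but not with library sizes alone (0.21, adjusted p = 0.0738) or a lane term (0.27, adjusted p = 0.24), and in monoculture the change was -0.06 ± 0.0947 (adjusted p = 0.55; -0.38 with library sizes alone, adjusted p = 0.0011).

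The change of the CRY1 difference from proliferation to 24 h, 0.33 ± 0.138, was near the threshold (adjusted p = 0.0463). It was lost with DESeq2 (adjusted p = 0.0601), with the 4 groups of the contrast alone (adjusted p = 0.0599), with a lane term (0.30, adjusted p = 0.128), within lane 6 (0.31, adjusted p = 0.124) and on leaving out any one of 11 of its 16 libraries (0.27 to 0.34, adjusted p = 0.0565 to 0.11). Those were replicates 2 and 3 of monoculture proliferation, 2, 3 and 4 of monoculture 24 h, 1, 2 and 3 of coculture proliferation and 1, 3 and 4 of coculture 24 h. From proliferation to 72 h the change was 0.40 ± 0.135 (adjusted p = 0.0122; 0.60 with library sizes alone, and 0.33 with a lane term, adjusted p = 0.171).

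The ratio of CRY2 to CRY1 counts within a library does not depend on scaling between libraries, and was computed after these values were seen, as a description. In proliferation it was 1.36 to 1.86 in coculture and 0.801 to 0.874 in monoculture. At 24 h it was 1.48 to 2.05 in coculture and 1.5 to 1.78 in monoculture. At 72 h it was 0.921 to 1.25 in coculture and 0.634 to 0.929 in monoculture. CRY2 thus outnumbered CRY1 in every coculture library of proliferation and in no monoculture library of that time, by counts that are not corrected for gene length.

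**Figure D3:**
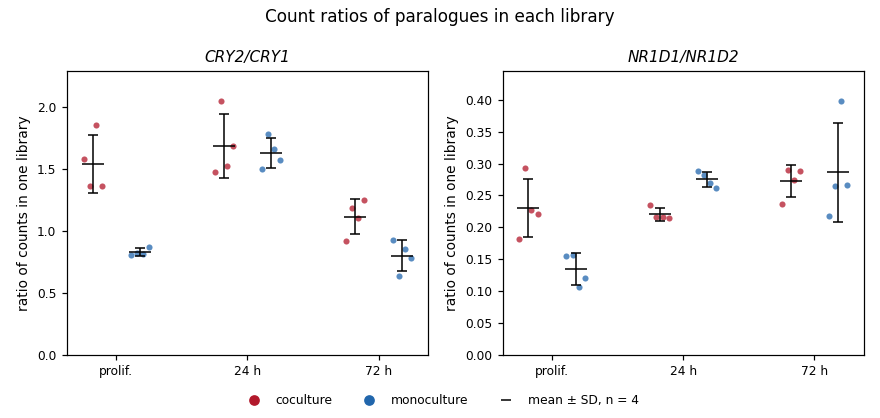
Ratio of CRY2 to CRY1 counts (left) and of NR1D1 to NR1D2 counts (right) in each library, by time, coculture in red left of monoculture in blue, with mean and SD of 4 libraries. In proliferation the CRY2 to CRY1 ratio averaged 1.54 in coculture and 0.827 in monoculture, and the NR1D1 to NR1D2 ratio 0.230 and 0.135.

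NR1D1 and NR1D2 encode the nuclear receptors REV-ERB alpha and beta, which bind heme and repress ARNTL. NR1D1 (ENSBTAG00000012178) lies on chromosome 19 at 40389832 to 40397513 and shares 1098 bases with THRA, the thyroid hormone receptor gene next to it. The sources used here do not state whether counting used strand, so its reads are uncertain where the genes overlap. In proliferation NR1D1 was at 4.44, 6.35, 5.39 and 5.01 CPM in coculture, against 4.35, 4.44, 3.22 and 3.58 CPM in monoculture. The 24 h level was 5.44, 5.35, 5.04 and 5.36 CPM in coculture, against 6.85, 7.73, 6.05 and 6.84 CPM in monoculture. The 72 h level was 4.80, 5.22, 5.18 and 5.78 CPM in coculture, against 4.64, 5.70, 7.40 and 5.39 CPM in monoculture. The 3 coculture means lay within 5.25 to 5.30 CPM, and monoculture moved around them, below in proliferation and above at 24 h.

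NR1D1 was higher in coculture in proliferation (0.48 ± 0.139, adjusted p = 0.00397), though not without coculture proliferation replicate 2, the deepest library (0.34, adjusted p = 0.0597). It was lower in coculture at 24 h (-0.38 ± 0.129, adjusted p = 0.0308). The 24 h call was lost with a lane term (-0.35, adjusted p = 0.144), within lane 6 (-0.36, adjusted p = 0.186) and without any one of monoculture 24 h replicates 2 or 4 or coculture 24 h replicates 2, 3 or 4 (-0.39 to -0.31, adjusted p = 0.05 to 0.122). At 72 h the difference was -0.12 (95% interval -0.40 to 0.15). From proliferation to 24 h the change was -0.03 ± 0.133 in coculture (adjusted p = 0.87), while monoculture rose by 0.83 ± 0.135 (adjusted p = 3.4e-06). The change of the coculture difference over that step, -0.86 ± 0.19 (adjusted p = 0.000414), was -0.83 with a lane term and -0.81 within lane 6 (adjusted p = 0.00231 and 0.00572). At 72 h NR1D1 stood at -0.04 ± 0.133 from proliferation in coculture (adjusted p = 0.807) and was higher than in proliferation in monoculture, by 0.56 ± 0.141 (adjusted p = 0.000687; 0.24 with library sizes alone, adjusted p = 0.116). The change of the difference from proliferation to 72 h was -0.60 ± 0.194 (adjusted p = 0.00812), lost with library sizes alone (-0.40, adjusted p = 0.0744), with a lane term (-0.55, adjusted p = 0.0947) and without the libraries rich in ribosomal RNA (-0.41, adjusted p = 0.0914). Between 24 h and 72 h NR1D1 stood at -0.26 ± 0.13 in monoculture (adjusted p = 0.0865), called with library sizes alone (-0.40), without monoculture 72 h replicate 3 (-0.40) and without the libraries rich in ribosomal RNA (-0.42).

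THRA, the overlapping neighbour, also was higher in coculture in proliferation (0.24 ± 0.0659, adjusted p = 0.00218) and rose in monoculture to 24 h (0.21 ± 0.0662, adjusted p = 0.00676), by less than NR1D1 on the log2 scale in both cases. THRA averaged 20.1 CPM in coculture and 16.9 CPM in monoculture in proliferation, and 19.5 CPM in monoculture at 24 h. The same means of NR1D1 were 5.30, 3.90 and 6.87 CPM. Whether reads of THRA were counted for NR1D1 was not tested. Its coculture difference at 24 h was 0.10 (adjusted p = 0.302), of the other sign than that of NR1D1.

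NR1D2 (ENSBTAG00000018024) lies on chromosome 27 at 41987362 to 42013737. In proliferation it was at 24.4, 21.7, 23.8 and 22.7 CPM in coculture, against 28.0, 28.3, 30.3 and 29.9 CPM in monoculture. It averaged 24.1 ± 0.917 CPM in coculture and 24.9 ± 2.24 CPM in monoculture at 24 h, and 19.3 ± 1.05 and 20.4 ± 1.34 CPM at 72 h (SD, n = 4). In proliferation every coculture library was below every monoculture library, and at the later times the groups overlapped. The coculture difference was -0.34 ± 0.0616 in proliferation (adjusted p = 2.42e-05), -0.05 (95% interval -0.18 to 0.07) at 24 h and -0.08 (-0.22 to 0.05) at 72 h. Over the whole course NR1D2 fell by 0.25 ± 0.0646 in coculture (adjusted p = 0.00133; -0.26 with a lane term, adjusted p = 0.064) and by 0.51 ± 0.0632 in monoculture (adjusted p = 1.9e-08; -0.83 with library sizes alone). By 24 h coculture was at 0.07 ± 0.0628 (adjusted p = 0.41), and monoculture at -0.22 ± 0.061 (adjusted p = 0.00207; -0.41 with library sizes alone). Both then fell, by 0.32 ± 0.0642 in coculture and 0.29 ± 0.0642 in monoculture (adjusted p = 0.000128 and 0.000358). The change of the difference was 0.29 ± 0.0875 from proliferation to 24 h (adjusted p = 0.00718) and 0.26 ± 0.0905 from proliferation to 72 h (adjusted p = 0.0147). The second was 0.45 with library sizes alone and lost its call with a lane term (0.24, adjusted p = 0.118) and without the libraries rich in ribosomal RNA (0.17, adjusted p = 0.164).

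NR1D1 and NR1D2 thus differed in opposite directions between the cultures in proliferation. The ratio of NR1D1 to NR1D2 counts was 0.182 to 0.293 in coculture and 0.106 to 0.157 in monoculture in proliferation, with no overlap. It was 0.214 to 0.235 in coculture and 0.262 to 0.288 in monoculture at 24 h, again with no overlap but in the other order. At 72 h it was 0.236 to 0.289 in coculture and 0.217 to 0.398 in monoculture.

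BHLHE40, a repressor of the loop that also answers to growth and stress signals, was the deepest counted of the 10, with 3896 to 11344 counts per library (ENSBTAG00000009863; chromosome 22 at 21369457 to 21406265). In proliferation it was at 314, 297, 318 and 320 CPM in coculture, against 268, 253, 266 and 263 CPM in monoculture. At 24 h it was at 269, 279, 270 and 273 CPM in coculture, against 328, 339, 320 and 320 CPM in monoculture. At 72 h it was at 383, 374, 400 and 384 CPM in coculture, against 548, 535, 429 and 507 CPM in monoculture. The cultures never overlapped: coculture was above monoculture in proliferation and below it at both later times. It was the 1 gene of the 10 whose 6 groups could be put in order with no overlap between neighbours, highest in monoculture at 72 h and lowest in monoculture in proliferation.

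The coculture difference of BHLHE40 was 0.25 ± 0.0498 in proliferation, -0.26 ± 0.0498 at 24 h and -0.39 ± 0.0496 at 72 h (adjusted p = 8.26e-05, 0.000196 and 1.13e-07). With a lane term the later differences were -0.26 and -0.38 (adjusted p = 0.00438 and 0.00153). The change from proliferation to 24 h was -0.51 ± 0.0704 (adjusted p = 7.6e-07) and from proliferation to 72 h -0.64 ± 0.0703 (adjusted p = 6.3e-09). Between 24 h and 72 h the change was -0.13 ± 0.0702 (adjusted p = 0.201), called without monoculture 72 h replicate 3 (-0.20, adjusted p = 0.00503) and without the libraries rich in ribosomal RNA (-0.21, adjusted p = 0.00692). In coculture BHLHE40 fell by 0.19 ± 0.0498 to 24 h (adjusted p = 0.00209), or by 0.18 within lane 6 (adjusted p = 0.0515) and 0.32 with library sizes alone, and then rose by 0.50 ± 0.0498 (adjusted p = 6.96e-10). In monoculture it rose by 0.32 ± 0.0498 to 24 h (adjusted p = 1.6e-06; 0.13 with library sizes alone, adjusted p = 0.0621) and by 0.63 ± 0.0498 from there to 72 h (adjusted p = 3.72e-12). Over the whole course it rose by 0.31 ± 0.0497 in coculture (0.19 with library sizes alone) and 0.95 ± 0.0501 in monoculture.

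DBP, a transcription factor of the PAR bZIP family through which the clock drives metabolic genes, was listed at 18 to 66 counts per library (ENSBTAG00000006754; chromosome 18 at 55272313 to 55278976). Its levels ran from 1.38 to 2.28 CPM in coculture and 1.47 to 2.64 CPM in monoculture over all times, and all neighbouring groups overlapped. Of 12 comparisons of DBP 0 were called by edgeR or by DESeq2, and 0 had an unadjusted edgeR p under 0.05 (smallest 0.0777). The 95% intervals of its coculture differences in log2 ran from -0.42 to 0.34 in proliferation, -0.49 to 0.25 at 24 h and -0.60 to 0.15 at 72 h. The largest change over time, 0.34 ± 0.185 from proliferation to 72 h in monoculture (adjusted p = 0.0986), was called without monoculture 72 h replicate 4 (0.44, adjusted p = 0.0364). DBP shares 1409 bases with SPHK2, a sphingosine kinase gene, which is subject to the same doubt about strand. SPHK2 stood at 0.09 ± 0.0616 in coculture from proliferation to 72 h (adjusted p = 0.226) and rose by 0.77 ± 0.063 in monoculture (adjusted p = 2.36e-12).

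The members are now read against all genes, since most comparisons here called a large share of the table. In proliferation 7 of the 10 differed between coculture and monoculture, 4 higher and 3 lower, and 6 did not overlap. Among all genes 59.0% were called, 30.3% higher and 28.7% lower, and 53.0% did not overlap. At 24 h 3 of the 10 were called, PER1 higher and NR1D1 and BHLHE40 lower, against 23.8% of all genes (11.5% higher, 12.2% lower), and 3 did not overlap, against 24.4%. At 72 h 4 were called and did not overlap, PER1, CRY2 and CLOCK higher and BHLHE40 lower, against 50.5% called (25.1% higher, 25.4% lower) and 42.0% without overlap. The median size of the log2 difference was 0.32 in the 10 genes and 0.24 in all genes in proliferation, 0.16 and 0.12 at 24 h, and 0.17 and 0.20 at 72 h. The authors' deposited tables called the same 7, 3 and 4 genes at the 3 times, and their log2 fold changes were within 0.0171 of those given here.

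**Figure D4:**
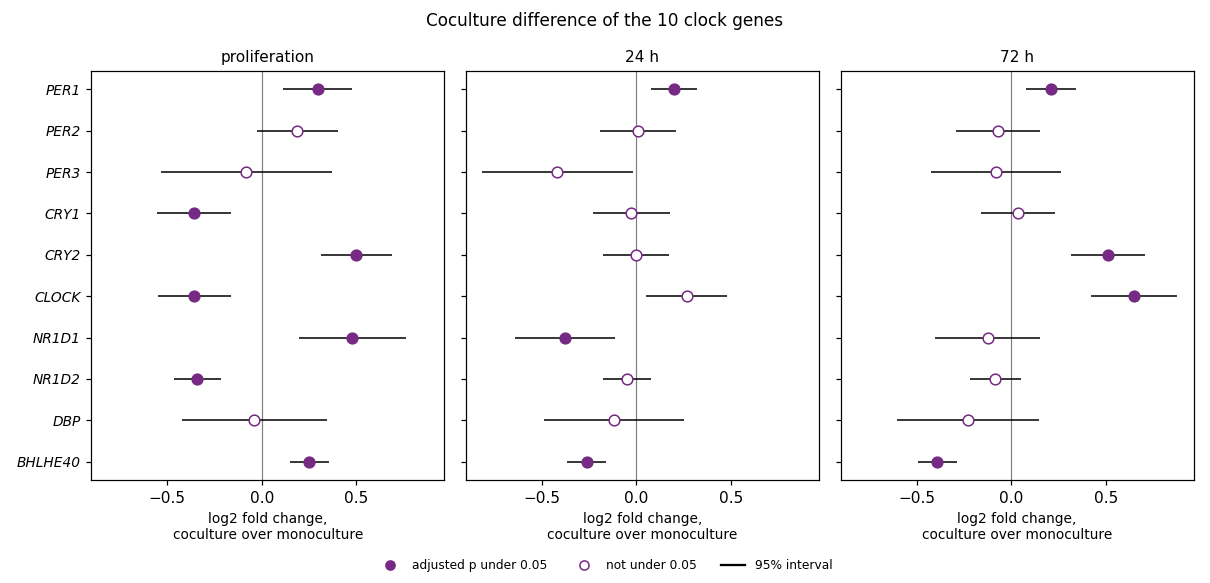
Log2 fold change of coculture over monoculture for the 10 clock genes at each time, with 95% intervals; filled points have an adjusted p under 0.05. BHLHE40 was at 0.25 in proliferation, -0.26 at 24 h and -0.39 at 72 h, CLOCK at -0.36, 0.27 and 0.65, and CRY2 at 0.50, -0.00 and 0.51.

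Over time, from proliferation to 24 h, 4 were called in coculture (2 higher, 2 lower; 2 without overlap), where 43.2% of all genes were called, 21.0% higher and 22.2% lower, and 39.7% did not overlap. In monoculture 9 were called over the same step (6 higher, 3 lower; 8 without overlap), where 68.5% of all genes were called, 34.3% higher and 34.2% lower, and 60.1% did not overlap. The median size of change over that step was 0.18 in the members and 0.17 in all genes in coculture, and 0.54 and 0.31 in monoculture.

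From 24 h to 72 h, 7 of the 10 genes were called in coculture (3 higher, 4 lower; 6 without overlap), beside 48.2% of all genes (24.4% higher, 23.8% lower; 46.3% without overlap). In monoculture 8 were called (3 higher, 5 lower; 5 without overlap), beside 53.9% of all genes (27.3% higher, 26.6% lower; 41.3% without overlap). Over the whole course 7 were called in coculture (4 higher, 3 lower; 7 without overlap), beside 60.3% of all genes (30.4% higher, 30.0% lower; 54.5% without overlap), and 6 in monoculture (4 higher, 2 lower, or 3 and 5 with library sizes alone; 6 without overlap), beside 75% (37.6% higher, 37.4% lower; 66.0% without overlap).

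The change of the coculture difference was called for 6 members from proliferation to 24 h, CRY1, CLOCK and NR1D2 upward and CRY2, NR1D1 and BHLHE40 downward, beside 50.5% of all genes (24.3% upward, 26.2% downward). From 24 h to 72 h it was called for CRY2, upward, beside 23.7% (12% upward, 11.7% downward). From proliferation to 72 h it was called for 5, CRY1, CLOCK and NR1D2 upward and NR1D1 and BHLHE40 downward, beside 62.3% (31.3% upward, 31.0% downward). The shares called among the 10 genes lay above those of all genes in some comparisons and below them in others. No test of the list was run, so the number of clock genes called is no result about them as a list.

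Scaling by library size alone in place of TMM shifted the median of all genes on the log2 scale by -0.32 from proliferation to 72 h in monoculture, by -0.19 and -0.13 over its steps to 24 h and from 24 h to 72 h, by -0.13 and -0.11 from proliferation to 24 h and to 72 h in coculture, and by 0.13 for coculture over monoculture at 72 h. The changes of the coculture difference shifted by 0.14 from 24 h to 72 h and by 0.21 from proliferation to 72 h. The share of calls that were higher then became 39.5%, against 51.3% with TMM, for coculture over monoculture in proliferation and 75.3%, against 49.7%, at 72 h. In coculture it became 21.7%, against 48.5%, from proliferation to 24 h and 32.4%, against 50.3%, to 72 h. In monoculture it became 29.5%, against 50.0%, from proliferation to 24 h, 27.0%, against 50.6%, from 24 h to 72 h, and 25.3%, against 50.2%, from proliferation to 72 h. For the changes of the coculture difference it became 58.8%, 85.4% and 71.3%, against 48.1%, 50.6% and 50.3%, for proliferation to 24 h, 24 h to 72 h and proliferation to 72 h. The split of the 10 genes kept its counts in the 3 coculture over monoculture comparisons and changed in others. In coculture it became 1 higher and 2 lower, against 2 and 2 with TMM, from proliferation to 24 h, 3 and 3, against 3 and 4, from 24 h to 72 h, and 3 and 4, against 4 and 3, from proliferation to 72 h. In monoculture it became 5 higher and 3 lower, against 6 and 3, from proliferation to 24 h, 2 and 6, against 3 and 5, from 24 h to 72 h, and 3 and 5, against 4 and 2, from proliferation to 72 h. The changes of the coculture difference kept 3 upward and 3 downward from proliferation to 24 h, and became 2 and 0, against 1 and 0, from 24 h to 72 h and 3 and 1, against 3 and 2, from proliferation to 72 h.

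Coculture differed from monoculture in proliferation, before the change of serum, in 7 genes that also changed in monoculture by 24 h. Among all genes 59.0% were called in the first comparison and 68.5% in the second, and the share called in both is not given here. These comparisons share the monoculture proliferation libraries, which by itself favours equal signs, so their values are only set side by side. The coculture difference and the monoculture change to 24 h were -0.36 and -0.36 for CRY1, 0.50 and 0.63 for CRY2, 0.48 and 0.83 for NR1D1, -0.34 and -0.22 for NR1D2, -0.36 and -0.87 for CLOCK, 0.25 and 0.32 for BHLHE40, and 0.30 and 2.29 for PER1. PER2, PER3 and DBP were not called in the first comparison. Their values were 0.19 and 0.46 for PER2, -0.08 and 0.72 for PER3, and -0.04 and 0.24 for DBP. For PER1 the first value was a small part of the second, and the changes to 24 h within coculture were -0.03 for CRY1, 0.12 for CRY2, -0.03 for NR1D1, 0.07 for NR1D2, -0.25 for CLOCK, -0.19 for BHLHE40 and 2.19 for PER1.

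The other genes of the clock were read from lists of related genes. ARNTL, which encodes BMAL1, was at 8.77 ± 0.427 CPM in coculture and 8.32 ± 1.02 CPM in monoculture in proliferation, 10.2 ± 0.936 and 10.1 ± 0.807 CPM at 24 h, and 10.9 ± 0.929 and 9.15 ± 0.475 CPM at 72 h (SD, n = 4). Its coculture difference was called at 72 h alone (0.25 ± 0.0924, adjusted p = 0.0222). ARNTL2, its paralogue BMAL2, was at 16.2 ± 2.84 CPM in coculture and 8.36 ± 0.698 CPM in monoculture at 72 h, a difference of 0.96 ± 0.137 (adjusted p = 8.27e-07). At 24 h ARNTL2 was lower in coculture (-0.47 ± 0.152, adjusted p = 0.0226), and the change of the difference between those times was 1.43 ± 0.205 (adjusted p = 4.38e-06). NPAS2, which can stand in for CLOCK, differed between the cultures at no time by this test (0.36, -0.21 and 0.03, adjusted p = 0.111, 0.434 and 0.9).

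RORA, a nuclear receptor that activates ARNTL where REV-ERBs repress it, was at 4.63 ± 0.335 CPM in coculture and 2.62 ± 0.121 CPM in monoculture at 72 h (0.83 ± 0.141, adjusted p = 1.23e-05). It fell to 24 h by 0.75 ± 0.192 in coculture and 0.56 ± 0.19 in monoculture (adjusted p = 0.00205 and 0.0101), and rose from there to 72 h by 2.23 ± 0.164 and 1.24 ± 0.178. NFIL3, the repressor E4BP4 that opposes DBP at its sites, rose from 24 h to 72 h by 0.68 ± 0.054 in coculture and 0.88 ± 0.0543 in monoculture. CIART, a repressor of CLOCK and BMAL1, was lower in coculture in proliferation (-0.61 ± 0.214, adjusted p = 0.0154) and higher at 72 h (0.81 ± 0.2, adjusted p = 0.00122), and the change of that difference was 1.41 ± 0.293 (adjusted p = 0.000125). Of DBP's relatives, TEF was higher in coculture in proliferation (0.38 ± 0.0804, adjusted p = 0.000175) and HLF lower (-0.42 ± 0.169, adjusted p = 0.0353). Lane and culture cannot be told apart within a lane for these genes at 72 h either.

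**Figure D5:**
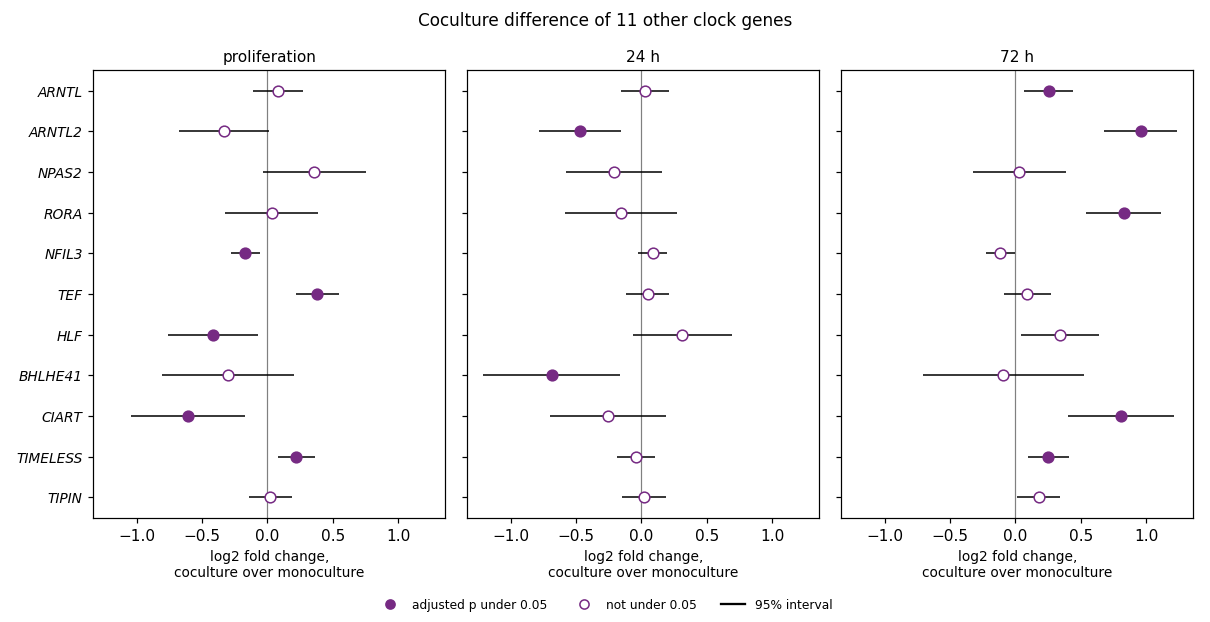
Log2 fold change of coculture over monoculture for 11 other clock genes at each time, with 95% intervals; filled points have an adjusted p under 0.05. At 72 h ARNTL2, RORA and CIART stood at 0.96, 0.83 and 0.81, with ARNTL2 called lower at 24 h (-0.47) and CIART in proliferation (-0.61).

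Of 16 clock kinases and phosphatases, which set how fast PER and CRY proteins are degraded, 15 were listed, and 5 were higher and 5 lower in coculture in proliferation, 5 and 1 at 24 h and 6 and 2 at 72 h, beside 59.0%, 23.8% and 50.5% of all genes called at these times. Of all genes, 30.3% were called higher and 28.7% lower in proliferation, 11.5% and 12.2% at 24 h, and 25.1% and 25.4% at 72 h. The casein kinase gene CSNK1E was lower at 24 h (-0.30), and CSNK1A1 was higher at 72 h (0.45). Of 13 listed genes of PER and CRY ubiquitination, 2 were higher and 6 lower in coculture in proliferation, beside 59.0% of all genes called, and 1 was higher at 24 h, beside 23.8%, the deubiquitinase gene USP9X (0.23, adjusted p = 0.00529). Of 12 clock cofactors 4 were higher and 2 lower in proliferation, with the deacetylase SIRT1 at -0.46, and 6 were higher and none lower at 72 h, beside 59.0% and 50.5% of all genes called. The median difference at 72 h was 0.14 in cofactors and 0.09 in kinases and phosphatases, beside -0.00 in all genes.

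Clock output genes of many tissues were listed for 12 of 15 symbols. In coculture 2 were higher and 5 lower in proliferation (median -0.25), 3 and 1 at 24 h (median -0.02), and 8 and 3 at 72 h (median 0.38), beside medians of 0.00, -0.00 and -0.00 in all genes, of which 59.0%, 23.8% and 50.5% were called. By direction, 30.3% of all genes were higher and 28.7% lower in proliferation, 11.5% and 12.2% at 24 h, and 25.1% and 25.4% at 72 h. KLF9, a transcription factor that glucocorticoids and the clock both raise, led the 72 h rises (1.44, adjusted p = 2.18e-10) and its relative KLF15 the falls (-1.23, adjusted p = 8.09e-06). These 72 h values too were not read with a lane term. Genes of serum, cAMP and glucocorticoid input, the routes that reset the clock and induce PER1, were listed for 15 of 18 symbols. In coculture 6 were higher and 3 lower in proliferation, 5 and 1 at 24 h, and 5 and 3 at 72 h, beside the same shares of all genes. Over the step at which PER1 rose, from proliferation to 24 h, 8 were higher and 2 lower in coculture and 7 and 4 in monoculture, beside 43.2% and 68.5% of all genes called. Of all genes, 21.0% were called higher and 22.2% lower in coculture over that step, and 34.3% and 34.2% in monoculture. EGR1 rose then in coculture (2.24, adjusted p = 5.34e-16), and CRTC2, a coactivator of CREB, led in monoculture (1.00, adjusted p = 1.26e-16). Whether any of these input genes took part in the PER1 rise was not tested.

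Genes whose levels followed each member most closely were named by Pearson's r over the 24 libraries (log2 CPM, among 10004 genes with a symbol and at least 5 CPM in their highest group). The libraries fall into 6 groups that share culture and time, so r describes these groups and carries no test. FNDC1, NNAT and CDH2 followed PER1 (r = 0.973, 0.965 and 0.965), and PTPN11, MAP3K20 and TNPO1 followed CLOCK (0.946, 0.946 and 0.946). DHCR7, IDI1 and SQLE, enzymes of cholesterol synthesis, were nearest to NR1D2 (0.931, 0.925 and 0.925), and GPC1, OSER1 and PPP1R15A to BHLHE40 (0.964, 0.954 and 0.953). CNPPD1 led for CRY2 (0.921), SEC63 for CRY1 (0.840), CFAP410 for NR1D1 (0.873), NOTCH1 for PER2 (0.881) and CALCOCO1 for PER3 (0.923), while the closest gene to DBP, ZFYVE21, reached 0.647. Among the members themselves the strongest relations were PER2 with CRY1 (r = -0.787), PER3 with BHLHE40 (0.775) and CLOCK with BHLHE40 (-0.736). Within groups, after removing group means, those were -0.518, -0.110 and 0.115, so the last 2 lay between groups.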

How the data were processed

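RNA of 24 libraries was made from 400 ng of total RNA each and sequenced, per the labels' protocols. The authors deposited whole-number counts per gene for a table of 36 columns, of which 12 match no label used here and were left out. Per the submitters' processing notes STAR, RSEM, FastQC and DESeq2 were used, in versions not given, so the counts may be rounded RSEM estimates, which the sources used here do not state. The genome build and the use of strand are not given in the sources used here. The authors' deposited tables of coculture over monoculture hold log2 fold changes and p-values, which were only set beside the fit.

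Counts were fitted with edgeR 4.0.16 (limma 3.58.1, R 4.3.3) with TMM scaling, 1 mean per group and all 6 groups in 1 fit (18 residual degrees of freedom). The filter for low counts removed 0 genes, and the smallest count in any library was 6. Genes with lower counts were thus already absent from the table, and shares of all genes are shares of the genes it holds. Quasi-likelihood tests of 12 contrasts were adjusted over 11937 genes each. SE is the log2 fold change divided by the square root of F, and intervals are 95%. The common biological coefficient of variation was 6.86%. The fit was tested on simulated data. Library totals of 11.5 to 35.0 M counts set the precision, which is least for PER3 and DBP.

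The members and lists were chosen with earlier results of these data known. All 10 clock genes are named whatever they did, and of each other list up to 3 called genes of largest change may be named. Likeness is Pearson's r over the 24 libraries. Alternatives were library sizes alone, DESeq2 1.42.0, a mean of at least 100 counts, no filter, the groups of the contrast alone, the replicate number, the lane as a term or 1 lane alone, no libraries rich in ribosomal RNA, and each library left out. The values of 1 other gene are not reported here. A planned motif search in promoters was not run, since no promoter sequence was used here. Every pair of libraries within a group differed by more than counting noise (chi-square per degree of freedom of at least 2.16). Python 3.11.15 and matplotlib 3.10.9 drew the figures.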

Additional observations from a re-analysis of the deposited data

Results flagged for a closer look

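The coculture difference changed between times, by the edgeR test of the change itself, for 6 of the 10 clock genes. Of all genes, 50.5% were called for this change from proliferation to 24 h. From 24 h to 72 h 23.7% were called, and from proliferation to 72 h 62.3%. The number of clock genes called is therefore no result about them as a list. From proliferation to 24 h the change in log2 fold change was 0.33 for CRY1, -0.50 for CRY2, 0.62 for CLOCK, -0.86 for NR1D1, 0.29 for NR1D2 and -0.51 for BHLHE40. From 24 h to 72 h it was 0.52 for CRY2. From proliferation to 72 h it was 0.40 for CRY1, 1.01 for CLOCK, -0.60 for NR1D1, 0.26 for NR1D2 and -0.64 for BHLHE40. With a lane term the CRY1 change to 24 h and the CRY1, NR1D1 and NR1D2 changes to 72 h lost their calls. The CRY1 change to 24 h was also lost with DESeq2. For CLOCK the difference was -0.36 in proliferation and 0.65 at 72 h, and for BHLHE40 0.25 and -0.39, so both changed sign. Of 60 groups of 4 values, 1 for each gene and group, 0 held a library apart from the other 3 by Dixon's 95% criterion, one that chance meets in about 5% of groups.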

How the results depend on the processing

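Over 120 comparisons of single clock genes, 2094 of 2196 alternative values kept their side of the threshold, 83 lost a call, 18 gained one and 1 gained one with the other sign. The last was PER2 from proliferation to 72 h in monoculture. It was at 0.00 and not called in the main fit (adjusted p = 0.972), and at -0.31 with library sizes alone (adjusted p = 0.0126). With library sizes alone, or without the libraries rich in ribosomal RNA, 2 clock genes changed their coculture difference from 24 h to 72 h in place of 1, and leaving out single libraries gave 1 to 2. From proliferation to 72 h in coculture 4 clock genes were called among genes with a mean of at least 100 counts and 3 with a lane term, in place of 7, and genes called over the table fell to 4368, against 7203. PER3 and DBP, at 15 to 72 and 18 to 66 counts per library, were below a mean of 100 counts and not tested there. PER3, called with all genes, was thus left out and did not lose its call. PER2 and CLOCK did lose theirs (-0.23 and -0.22, adjusted p = 0.0607 and 0.0533). From proliferation to 24 h in coculture 2 were called with a lane term, 1 within 1 lane and 2 to 3 without single libraries, in place of 4. The lane term also left 3402 genes called at 72 h, against 6029, and 2 clock genes whose difference changed from proliferation to 72 h, against 5. Within 1 lane 1746 genes and 1 clock gene were called at 24 h, against 2836 and 3. No value within 1 lane could be had for coculture against monoculture at 72 h, or for changes in coculture from proliferation to 72 h. The cause of these shifts was not tested.

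Replicate numbers did not pair the libraries: 1 of 60 same-numbered pairs correlated above 0.1 (median -0.00774) and 2 of 24 libraries were closest to their own number. The replicate block gave 7009 genes called in proliferation, 2756 at 24 h and 5927 at 72 h, and ended the CRY2 change from 24 h to 72 h in coculture (-0.22, adjusted p = 0.0511) and the CRY1 change of the coculture difference to 24 h (0.33, adjusted p = 0.0558). Depth limits PER3 and DBP, at 15 to 72 and 18 to 66 counts per library.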
